A study of Mus musculus with 474 samples.

Results

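Skeletal muscle RNA was compared between Diversity Outbred (DO) mice with high and with low transcript levels of Fosb. The animals were chosen by Fosb itself. Libraries whose titles carry the numbers 19, 21 and 23, read here as outbred generations, were divided into 6 groups by sex and generation, and each group was ranked by the Fosb score that the authors deposited. The 10 highest libraries of each group were called Fosb-high and the 10 lowest Fosb-low, which gave 60 and 60 libraries. These 120 were 25.3% of all libraries in the series and came from groups of 46 to 50. The 26 to 30 libraries of each group that fell between both ends, and 4 groups of 45 to 48 libraries from generations 17 and 18, were in neither class and were examined separately.

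DO mice are an outbred stock with several inbred founder strains, so each animal carries its own genotype. Each library came from 1 animal labelled female (F) or male (M), and each group gave as many Fosb-high as Fosb-low animals. All groups shared the tissue (skeletal muscle), the stock and a high-fat, high-sugar (HFHS) diet that the labels put at 45% fat. By the study's methods the animals started the diet young and were all killed at the same adult age, and there was no group on another diet.

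Fosb encodes a FOS protein, which pairs with a JUN protein to form the transcription factor AP-1. Fosb, Fos, Egr1 and Nr4a1 are immediate-early genes: they are transcribed within minutes of a stimulus, without new protein synthesis, through factors such as CREB and SRF that are already present in the cell, and their mRNAs are short-lived. In muscle they are known to answer contraction, stretch, hormones that raise cyclic AMP and injury, and the handling of tissue before it is frozen can induce them as well.

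The deposited Fosb score is a variance stabilised count, and its differences are not log2 differences of the CPM values. Among the Fosb-high libraries it ran from 10.2 to 12.3 with a median of 11.2, and among the Fosb-low libraries from 6.88 to 8.54 with a median of 7.48. In counts scaled to library size (CPM), Fosb was 13.9, 27.6 and 62.7 at the lowest, the median and the highest Fosb-high library, and 0.205, 0.756 and 3.14 at the same places among the Fosb-low. These CPM values stood on at least 828 expected counts per library in the Fosb-high class and on at least 16 in the Fosb-low. The fitted log2 difference was 4.87, or 29.3-fold, and is given without a test because Fosb set the classes. It ranged from 4.47 in males of generation 23 to 5.48 in females of that generation.

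At the upper border of the classes, the tenth highest score and the next one below it lay closest in males of generation 19, at 11.01 and 10.99, and farthest apart in females of generation 23, at 10.62 and 10.29. At the lower border, the tenth lowest score and the next one above it lay closest in females of generation 23, at 7.68 and 7.71, and farthest apart in males of generation 19, at 8.54 and 8.79. The medians of whole groups ranged from 8.63 in females of generation 21 to 9.94 in females of generation 19, so a Fosb-low male of generation 19, at up to 8.54, came close to the middle of females of generation 21. All 4 medians of generations 17 and 18 lay lower, between 7.37 and 7.84, and their highest score was 9.44. The median Fosb level over those generations, 0.742 CPM, was close to the 0.756 CPM of the Fosb-low libraries.

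**Figure D1:**
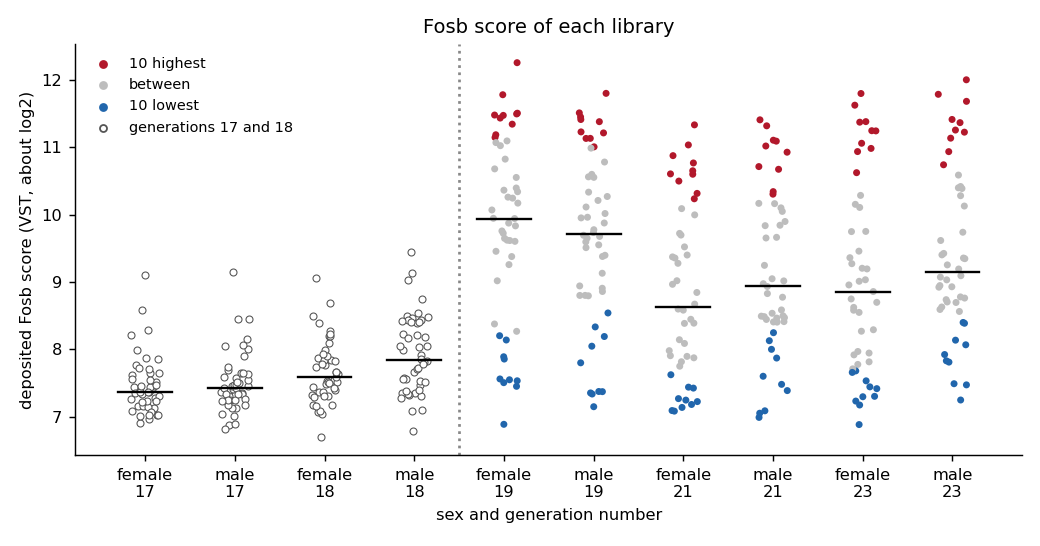
Deposited Fosb score (vertical axis, variance stabilised) of every library by sex and generation, with black bars as group medians. The axis label reads about log2, but score differences are not log2 differences of CPM. Red and blue points are the 10 highest and 10 lowest libraries of each group of generations 19, 21 and 23, grey points lie between, and open points are generations 17 and 18, whose highest score was 9.44.

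Sequencing depth overlapped widely between the classes. Total counts ran from 59.01 to 118.5 M in the Fosb-high and from 53.8 to 128.3 M in the Fosb-low libraries, with means of 82.99 ± 13.6 and 81.3 ± 17.03 M (SD, n = 60 each). Of 5 measures of depth, quality and numbering, the mitochondrial share of counts came nearest to a difference, at 9.95 ± 1.69% against 10.7 ± 2.38%, and it did not pass (permutation test within groups, 2-sided, p = 0.0476, adjusted p = 0.238). The other 4 had adjusted p from 0.674 to 0.941. For this work the library numbers were divided into 5 consecutive blocks, which the labels do not name, in which the Fosb-high libraries numbered 9, 15, 14, 14 and 8 and the Fosb-low 17, 14, 10, 9 and 10. Sex-linked transcripts went against the labelled sex in 0 of the 120 libraries.

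Of 18095 genes tested besides Fosb, 1.81% differed between the classes at an adjusted p under 0.05 (edgeR quasi-likelihood test with group as covariate, Benjamini-Hochberg adjustment) and are referred to as called. The level was higher in Fosb-high animals for 1.16% of the genes tested and lower for 0.652%, so that 63.9% of the calls were rises. The median log2 difference was 0.35 among the rises and -0.27 among the falls, against -0.0017 over all genes tested. A 2-fold difference was reached by 27 genes (0.149%), of which 26 rose. The fitted difference had the same sign in all 6 groups for 81.7% of the called genes, against 5.95% of all genes tested. The calls were made on these same 6 groups, so a higher share among called genes follows in part from the selection. With libraries scaled by total count alone, 52.2% of the calls were rises. Without generation 23 the share of genes called was 0.691% and without generation 19 it was 1.0%.

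**Figure D2:**
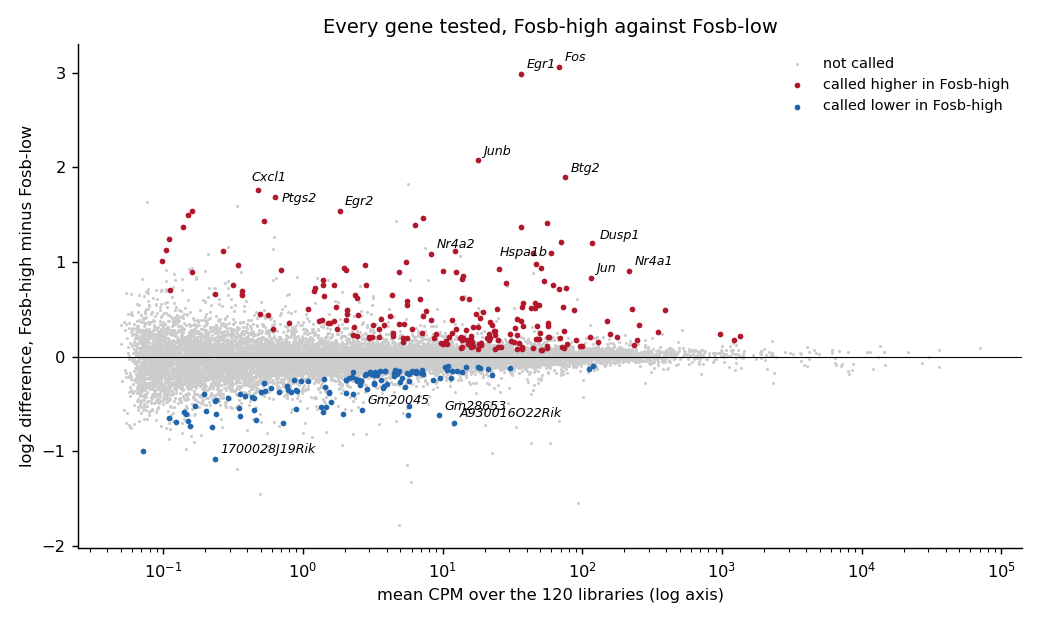
Log2 difference between Fosb-high and Fosb-low libraries (vertical axis) against mean level in CPM (horizontal log axis) for each gene tested. Red points are genes called higher and blue points genes called lower at an adjusted p under 0.05 (edgeR); Fos, at 3.06, and Egr1, at 2.99, stand highest.

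Fos, the gene that names the FOS family, had the largest log2 difference. Its level was 45.5, 104.2 and 312.9 CPM at the lowest, median and highest Fosb-high library and 2.76, 12.3 and 51.9 CPM among the Fosb-low. In each of the 6 groups every Fosb-high library lay above every Fosb-low one, although over all groups together 2 libraries of each class overlapped. The difference was 3.06 ± 0.14 (SE), or 8.36-fold (edgeR, adjusted p = 9.03e-40), and it ranged over the groups from 2.21 in males of generation 23 to 3.99 in females of generation 19. Fos lies at chr12:85473890-85477273 on the plus strand and Fosb at chr7:19302696-19310051 on the minus strand (GRCm38).

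Egr1 encodes a zinc finger factor induced by growth factors and by contraction. Its lowest, median and highest values were 27.2, 61.7 and 119.3 CPM in Fosb-high libraries and 2.94, 7.05 and 21.8 CPM in Fosb-low ones. All 60 Fosb-high libraries exceeded the highest Fosb-low library. The difference of 2.99 ± 0.11 (7.96-fold, edgeR adjusted p = 7.39e-49) varied little among the groups, from 2.82 to 3.25. Fos and Egr1 were the 2 genes of 18095 (0.0111%) whose classes were apart in all 6 groups, and Ier2, a regulator of transcription induced with them, was apart in 5. Ier2 rose by 1.47 ± 0.07 on the log2 scale (edgeR, adjusted p = 2.75e-36).

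**Figure D3:**
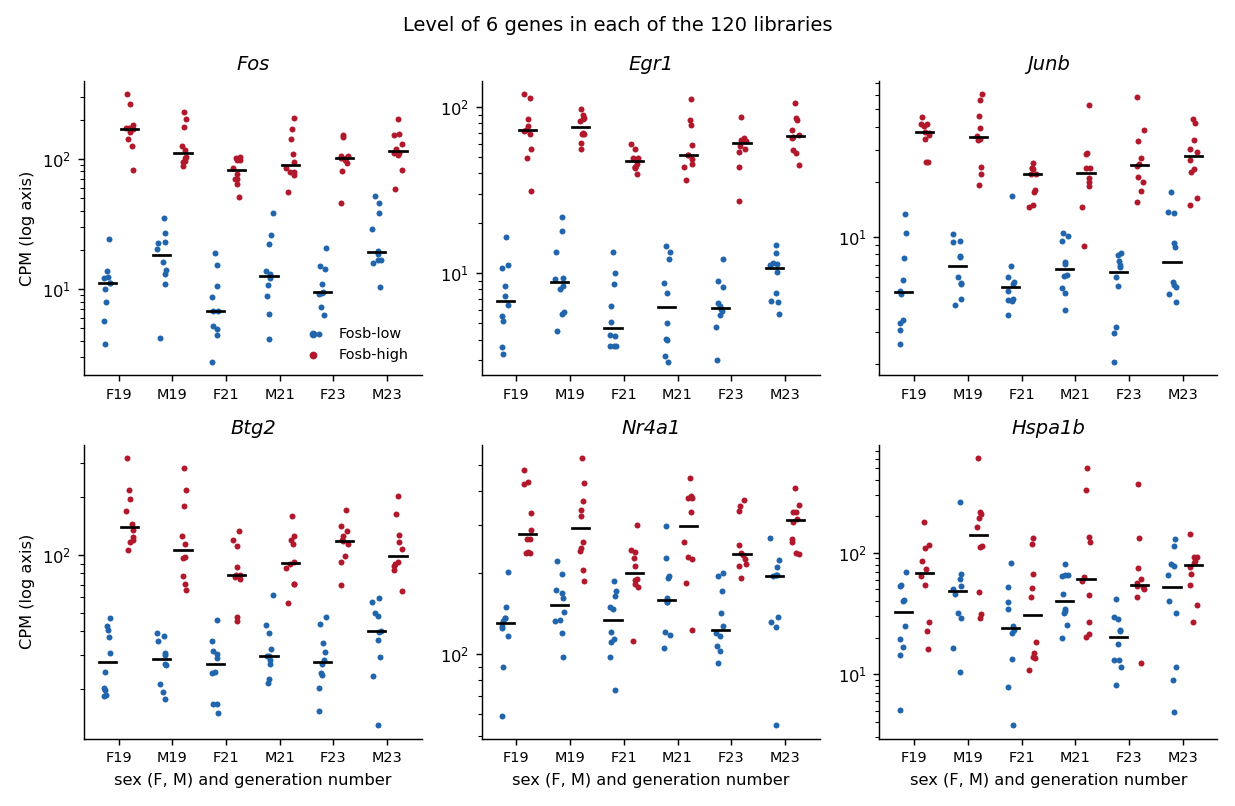
Level in CPM (vertical log axes) of 6 genes in each of the 120 libraries, by sex (F, M) and generation number; red points are Fosb-high, blue points Fosb-low and black bars medians of 10 libraries. Fos and Egr1 do not overlap within any group, whereas the ranges of Hspa1b overlap in all 6.

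The AP-1 family was taken as a list of 16 genes. Besides Fosb, 9 of 15 tested members rose and 0 fell, with a median log2 difference of 0.27 (edgeR, against 1.16% of all genes called higher). Junb, a JUN protein that forms AP-1 with FOS proteins, was 8.88, 25.6 and 60.4 CPM at the lowest, median and highest Fosb-high library and 2.06, 5.87 and 17.5 CPM in the Fosb-low. It differed by 2.08 ± 0.11, and 53 Fosb-high libraries lay above all Fosb-low ones. Jun, the founding JUN gene, rose less, by 0.84 ± 0.07, with medians of 144.3 against 79.7 CPM. Jund, which is known as the steadily expressed JUN gene, rose by 0.47 ± 0.09, and Fosl2 by 0.57 ± 0.08. Fosl1, the remaining FOS gene, was not called (0.04 ± 0.11).

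Atf3, a stress-induced factor that pairs with JUN proteins, rose by 1.37 ± 0.15. Its values, 13.6, 39.9 and 166.1 CPM in the Fosb-high and 5.47, 18.4 and 58.5 CPM in the Fosb-low class, overlapped in every group. The small MAF factors, which bind related DNA sites, split: Maff rose by 1.00 ± 0.12 and Mafk by 0.27 ± 0.05, and Mafg was at 0.04 ± 0.03 (adjusted p = 0.691). Jdp2, a repressor of AP-1, rose by 0.19 ± 0.05 with an adjusted p of 0.0367, and this call was lost with library block as a covariate (adjusted p = 0.101). Batf, Batf2, Batf3 and Maf were not called.

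All 3 NR4A receptors, orphan nuclear receptors that act without a known ligand, were higher in Fosb-high animals. Nr4a1 was 112.1, 259.5 and 528.6 CPM at the lowest, median and highest Fosb-high library and 54.7, 139.8 and 297.6 CPM in the Fosb-low. The classes overlapped: 24 Fosb-high libraries exceeded the highest Fosb-low one, and the classes were fully apart in 1 of the 6 groups. The difference was 0.91 ± 0.08, or 1.88-fold (edgeR, adjusted p = 1.29e-17), between 0.62 in females of generation 21 and 1.33 in females of generation 19. Nr4a2 rose by 1.09 ± 0.19 and Nr4a3 by 0.94 ± 0.16, with wider errors. Nr4a1 spans chr15:101254269-101274795 on the plus strand (GRCm38).

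The 16 tested genes among the other immediate-early transcription factors had a median of 0.52. Of them, 12 rose and 0 fell, against 1.16% of all genes called higher. Besides Egr1 and Ier2 these included the other EGR factors Egr2 (1.54 ± 0.11) and Egr3 (1.43 ± 0.17). Egr3 was scarce, with medians of 0.714 and 0.241 CPM. Csrnp1 rose by 0.91 ± 0.11 and Ier5, which activates heat shock factor, by 0.90 ± 0.09. Klf2, which answers blood flow in endothelial cells, rose by 0.78 ± 0.07, Klf4 by 0.57 ± 0.05 and Klf6 by 0.33 ± 0.06. Myc (0.40 ± 0.08), Hes1 (0.39 ± 0.11) and Nfil3 (0.35 ± 0.10) rose as well. Srf, which encodes the serum response factor itself, was not called (0.09 ± 0.04, adjusted p = 0.294), nor were Klf10, Npas4 and Bhlhe40.

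Of 20 feedback inhibitors and mRNA decay factors, 9 rose and 0 fell, with a median of 0.20 (1.16% of all genes were called higher). Btg2, an antiproliferative partner of the deadenylase that shortens mRNA tails, was 45.2, 113.5 and 318.8 CPM in Fosb-high and 12.9, 29.8 and 61.98 CPM in Fosb-low libraries (1.90 ± 0.10, edgeR adjusted p = 1.58e-33). Dusp1, a phosphatase that switches off MAP kinases, was 92.95, 158.02 and 294.5 CPM in Fosb-high and 42.3, 69.9 and 117.7 CPM in Fosb-low libraries, and both Btg2 and Dusp1 were apart in 4 of the 6 groups. The Dusp1 difference of 1.20 ± 0.06 ranged from 1.07 to 1.52 over the groups. Zfp36, which targets AU-rich mRNAs for decay, rose by 1.10 ± 0.08 and Errfi1, an inhibitor of the EGF receptor, by 0.71 ± 0.07. Dusp1 overlaps Ergic1 on the opposite strand, and Ergic1 was not called (-0.0031 ± 0.04).

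The promoters of these genes are shown because CREB and SRF, the factors known to start immediate-early transcription, recognise short DNA motifs. RefSeq (GRCm38.p6) listed a promoter for 48 of the 66 genes named by the rule. The 250 bases before each start were searched on both strands for the cyclic AMP response element (CRE) TGACGTCA, its core TGACG, the AP-1 site TGANTCA and the serum response element. A full CRE holds 2 overlapping cores, 1 on each strand, and a gene with several listed starts had more chances of a match. Sequences run 5′ to 3′ on the gene's strand, with cores in capitals for Fosb, Fos and Nr4a1 and the full CRE in capitals for Btg2 and Dusp1; CGTCA is the core read on the other strand. The windows are chr7:19310046-19310295 (minus), chr12:85473640-85473889 (plus), chr15:101266596-101266845 (plus), chr1:134079156-134079405 (minus) and chr17:26508473-26508722 (minus).
Fosb: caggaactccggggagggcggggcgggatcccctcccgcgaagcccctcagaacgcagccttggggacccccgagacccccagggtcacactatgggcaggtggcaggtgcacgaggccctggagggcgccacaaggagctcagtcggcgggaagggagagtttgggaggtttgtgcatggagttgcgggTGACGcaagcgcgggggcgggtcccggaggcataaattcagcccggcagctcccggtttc
Fos: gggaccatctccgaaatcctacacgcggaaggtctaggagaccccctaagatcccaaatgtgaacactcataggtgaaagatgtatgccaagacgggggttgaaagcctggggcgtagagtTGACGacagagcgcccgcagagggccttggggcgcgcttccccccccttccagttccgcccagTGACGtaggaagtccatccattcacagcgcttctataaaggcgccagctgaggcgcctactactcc
Nr4a1: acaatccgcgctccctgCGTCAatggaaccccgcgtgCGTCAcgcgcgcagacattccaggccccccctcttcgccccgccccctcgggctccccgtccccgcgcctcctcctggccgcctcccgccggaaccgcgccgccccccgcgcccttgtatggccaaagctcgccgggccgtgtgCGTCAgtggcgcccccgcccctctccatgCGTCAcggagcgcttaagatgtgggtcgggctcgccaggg
Btg2: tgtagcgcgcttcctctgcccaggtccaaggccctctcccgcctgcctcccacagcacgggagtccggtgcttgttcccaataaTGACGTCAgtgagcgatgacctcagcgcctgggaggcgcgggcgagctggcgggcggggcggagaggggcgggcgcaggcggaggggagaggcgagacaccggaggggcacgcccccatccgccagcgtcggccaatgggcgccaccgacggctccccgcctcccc
Dusp1: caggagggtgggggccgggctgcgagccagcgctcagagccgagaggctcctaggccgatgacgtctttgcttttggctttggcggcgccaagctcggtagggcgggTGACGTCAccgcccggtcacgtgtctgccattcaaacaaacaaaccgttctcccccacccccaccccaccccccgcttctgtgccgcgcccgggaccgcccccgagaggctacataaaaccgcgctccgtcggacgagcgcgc

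Fosb held 1 core, 60 bases before its start, Fos held 2 and Nr4a1 4. Over all 32851 promoters 1.55% held a full CRE and 17.8% a core. Counted per gene, a full CRE was found in 11.04% of the called rises that had a promoter listed, in 1 of 74 such falls (1.35%) and in 2.70% of the 12392 genes tested that had one. Besides Btg2 and Dusp1 the matches included Maff, Errfi1, Slc25a25 and Ppp1r15a. Cores were found in 46.8% of the rises, 32.4% of the falls and 28.1% of the genes tested. The AP-1 site was held by 9.09% of the rises, 5.41% of the falls and 5.95% of genes tested. The serum response element was held by 4.55% of the rises, Egr2 and Zfp36 among them, by 2.70% of the falls and by 1.37% of genes tested. These are matches of letters in 1 window and no measure of binding.

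Cyclic AMP responsive genes rose in 4 of 8 cases, with a median of 0.19, where 1.16% of all genes were called higher. Sik1, a kinase that restrains CREB signalling, was 36.2, 73.7 and 162.2 CPM in Fosb-high and 13.7, 43.9 and 92.8 CPM in Fosb-low libraries (0.76 ± 0.10). Gem, a small GTPase that limits calcium channels, rose by 0.75 ± 0.08, and the clock gene Per1, also a CREB target, by 0.53 ± 0.09. Pde4d, which degrades cyclic AMP, rose by 0.18 ± 0.04. Ppargc1a, the exercise-induced coactivator of mitochondrial genes, was not called (0.20 ± 0.11, adjusted p = 0.452), nor was Crem (0.15 ± 0.06).

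Of 14 SRF targets and matricellular genes 3 rose, all secreted matricellular proteins: Ccn1 (0.98 ± 0.09), Thbs1 (0.51 ± 0.10) and Ccn2 (0.38 ± 0.07). The list median was 0.08, and 1.16% of all genes were called higher. Ccn1 medians were 62.9 and 29.0 CPM. The cytoskeletal members were not called, among them Acta2 (0.09 ± 0.05), Vcl (0.05 ± 0.03) and Actb (0.05 ± 0.04).

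Of 15 tested genes on the list of acute cytokines and NF-kB, 4 rose and 0 fell, against 1.16% of all genes called higher. The list median was 0.51. Cxcl1, a neutrophil attractant, had medians of 0.698 and 0.182 CPM and differed by 1.76 ± 0.18. Il1b, with medians of 0.179 and 0.0448 CPM, differed by 1.54 ± 0.28, and Ccl7 by 0.90 ± 0.25. Ccl7 lost its call in 6 of 19 alternatives, library block as a covariate among them, and Il1b in 2. Nfkbiz, a nuclear regulator of NF-kB, rose by 0.66 ± 0.08. Il6 (0.83 ± 0.25, adjusted p = 0.0589) and Tnf (0.92 ± 0.27, adjusted p = 0.0547) stood just outside the threshold. Of the 26 genes at least 2-fold higher, 10 had a mean under 1 CPM, among them, named after their values were seen, Ptgs2 (1.69 ± 0.14), the inducible cyclooxygenase, and Osm (1.13 ± 0.24), a cytokine that signals in muscle.

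Heat shock chaperones rose in 7 of 16 cases and fell in 0, with a median of 0.16 (1.16% of all genes called higher). Hspa1b, an inducible HSP70 gene, was 10.9, 63.7 and 607.1 CPM in Fosb-high and 3.78, 31.9 and 262.7 CPM in Fosb-low libraries. Only 4 Fosb-high libraries exceeded the highest Fosb-low one. The difference of 1.22 ± 0.22 ran from 0.42 in males of generation 23 to 2.11 in females of that generation, and it did not pass in males alone (1.13, adjusted p = 0.0969) and with the 15 highest and lowest libraries of each group (0.61, adjusted p = 0.115). Hspa1a (1.10 ± 0.20) is a near-identical copy, and the counting could divide reads between both. Dnajb1, a co-chaperone of HSP70, rose by 0.93 ± 0.15 and Hspb1 by 0.49 ± 0.09. Hspd1 and Hspe1, the mitochondrial chaperonins, were not called (0.02 ± 0.03 and 0.06 ± 0.03).

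Against 1.16% of all genes called higher, glucocorticoid responsive genes gave 6 rises of 18 (median 0.22). They included the metallothioneins Mt1 (0.85 ± 0.19) and Mt2 (0.82 ± 0.23), which bind zinc, Ddit4 (0.80 ± 0.17), an inhibitor of mTOR, and Cebpd (0.62 ± 0.16). Fkbp5, a co-chaperone of the glucocorticoid receptor and one of its most used target genes, was not called (0.05 ± 0.12, adjusted p = 0.932), nor was Tsc22d3 (0.18 ± 0.06, adjusted p = 0.0698). Mt2, unlike the other named genes, was below 0 in 1 of the 6 groups, and its call was lost with library block as a covariate (adjusted p = 0.0616), as was that of Cebpd (adjusted p = 0.0642). Of the 65 named genes other than Fosb, 5 lost their call with that covariate, the other 3 being Jdp2 (adjusted p = 0.101), Ccl7 (0.0725) and Nfil3 (0.0665).

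Of 15 exercise and fuel genes, Irs2, an adaptor of insulin signalling, rose by 0.73 ± 0.11 and Slc25a25, a mitochondrial ATP carrier, by 0.51 ± 0.11, whereas Pdk4, Hk2, Vegfa and Slc2a4 were not called. Gadd45b (0.59 ± 0.13) and Ppp1r15a (0.34 ± 0.05), which ends the translation block of stressed cells, were the 2 rises of 15 unfolded protein and amino acid stress genes, and Atf4 stood at 0.03 ± 0.03. Adm, a vasodilator peptide, was the 1 rise of 14 hypoxia genes (0.45 ± 0.07). Of 16 clock genes, Per1 and Ciart (0.65 ± 0.16) rose, and Arntl (-0.0063 ± 0.10), Nr1d1 (0.03 ± 0.10) and Dbp (0.22 ± 0.22) were not called. The medians of these 4 lists were 0.10, 0.05, 0.0066 and 0.04, and 1.16% of all genes were called higher.

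Outside the lists, Otud1, a deubiquitinase, was 17.2 and 70.3 CPM at the lowest and the median Fosb-high library and 9.84, 26.5 and 93.3 CPM at the lowest, median and highest Fosb-low one, which 17 Fosb-high libraries exceeded. It differed by 1.41 ± 0.13 (edgeR, adjusted p = 3.76e-17), and its classes overlapped in every group. Apold1, an immediate-early gene of endothelial cells, differed by 1.12 ± 0.11, with 15.7 CPM against 6.89 CPM at the medians.

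**Figure D4:**
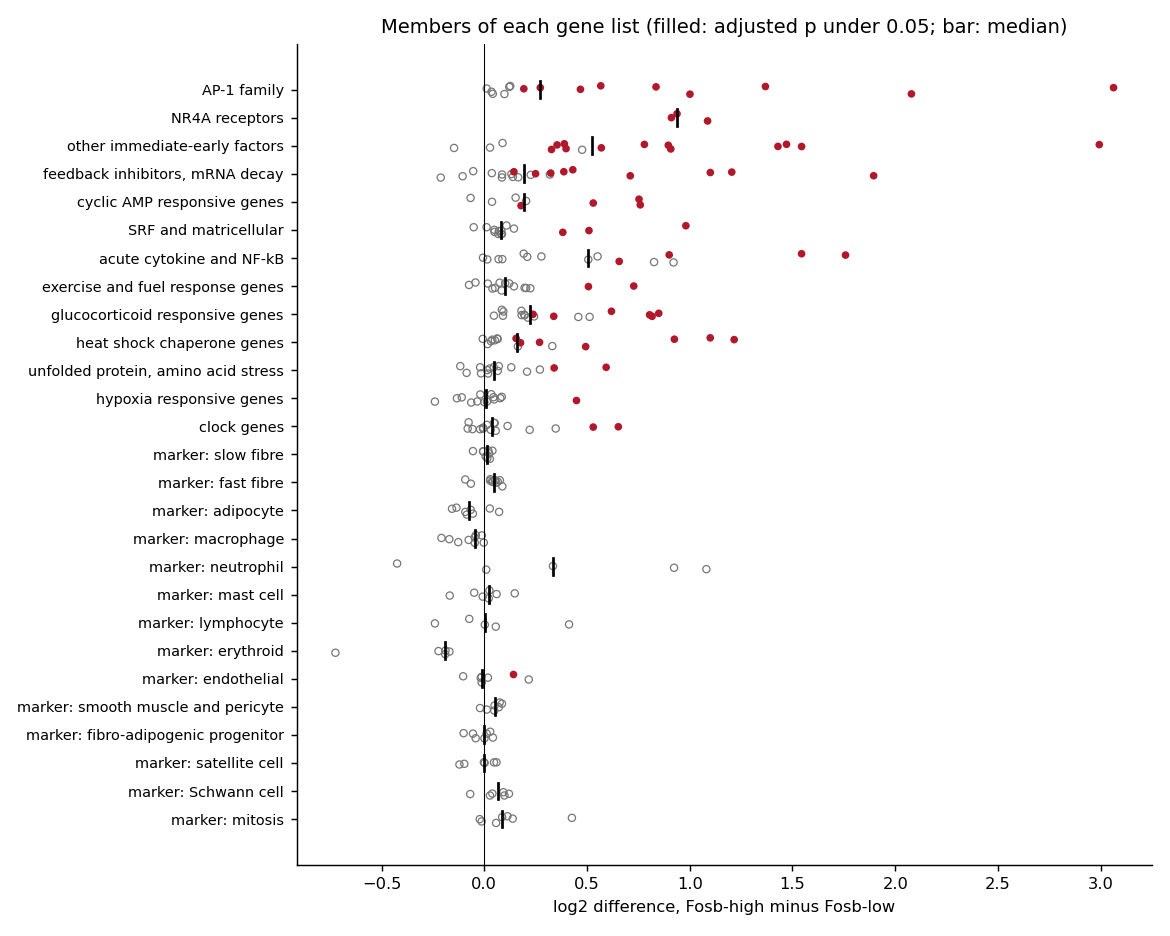
Log2 difference (horizontal axis) of each tested member of the gene lists and cell type marker lists. Filled points passed an adjusted p under 0.05 (edgeR), open points did not, and black bars are list medians; the calls on the marker lists come to 1.

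Of the 14 lists of cell type markers, 13 had 0 called members, and the endothelial list had 1 of 7, Esam (0.14 ± 0.03, edgeR adjusted p = 0.00591), where 1.81% of all genes were called. The summed level of the 7 endothelial markers ran from 179.2 to 336.5 CPM in Fosb-high libraries (median 220.4) and from 173.9 to 278.2 CPM in Fosb-low ones (median 222.3). The 9 macrophage markers summed to 67.3 to 224.4 CPM against 61.996 to 195.2 CPM, with medians of 104.9 and 112.4. Fast fibre markers, which define this tissue, summed to medians of 167739 and 159826 CPM and slow fibre markers to 3185 and 2879 CPM. In bulk tissue, fewer cells of a type and less RNA per cell cannot be told apart.

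Blood and immune markers varied widely between libraries. The 5 neutrophil markers summed to 0.734 to 5.12 CPM in Fosb-high and 0.435 to 13.5 CPM in Fosb-low libraries (medians 1.90 and 1.85), and 3 of them were at 0 in at least 1 library. None of the 5 was called, and their differences had a median of 0.33 and ran from -0.42 for Mmp9 (edgeR adjusted p = 0.374) to 1.08 for S100a9 (adjusted p = 0.146). Erythroid markers had medians of 128.8 and 151.6 CPM, and lymphocyte markers, all 5 at 0 in some library, 0.575 and 0.674 CPM. Their part in the cytokine gene results was not tested. With the scores of 6 marker lists as covariates, 2.08% of genes were called, and 300 of these were called without the covariates as well. The 6 lists were slow fibre, adipocyte, macrophage, erythroid, endothelial and Schwann cell, so neutrophil and lymphocyte markers were not adjusted for.

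The falls were smaller than the rises and held many non-coding genes. By GENCODE M21, 42.4% of the genes called lower were non-coding other than pseudogenes, against 5.74% of those called higher and 13.3% of the genes tested. Among those with a mean of at least 1 CPM and a fall in all 6 groups, A930016O22Rik fell furthest, by 0.70 ± 0.10 (edgeR, adjusted p = 3.27e-07). Its values were 2.06, 8.39 and 21.7 CPM in Fosb-high and 8.24, 14.1 and 26.9 CPM in Fosb-low libraries, so both classes overlapped, and its fall ranged from 0.16 in females of generation 21 to 1.41 in males of generation 19. It lies antisense to Ckm, the muscle creatine kinase gene, at chr7:19417466-19421417, and Ckm was not called (0.11 ± 0.05).

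The lowest coordinates of A930016O22Rik and Fosb lie 114.8 kb apart. Within 5 Mb of Fosb, a window chosen after the values were seen, 4 genes were called, which is 3.77% of those tested there against 1.81% of all genes. The other 3 were Gpr4 (0.21 ± 0.05), Prkd2 (0.23 ± 0.06) and Gm45114 (-0.65 ± 0.17).

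Gm28653, Gm20045 and 6720427I07Rik, annotated as lincRNA, fell by 0.62 ± 0.14, 0.56 ± 0.06 and 0.54 ± 0.08, and 6720427I07Rik overlaps the gene Gm37238. The call of Gm28653 was lost in 5 of 20 alternatives, among them females alone (adjusted p = 0.153), males alone (0.114) and without generation 19 (0.0657), whereas Gm20045 and 6720427I07Rik kept theirs in all 20. Gm20045 had the smallest adjusted p of the named falls (8.19e-14), with 1.13, 2.07 and 3.70 CPM in Fosb-high and 1.74, 3.06 and 4.51 CPM in Fosb-low libraries. The antisense genes Gm11266 (-0.60 ± 0.13), 9430073C21Rik (-0.52 ± 0.14) and 4732440D04Rik (-0.40 ± 0.07) overlap Nfib, Myh2 and Rb1cc1, which were not called (-0.07 ± 0.03, -0.09 ± 0.06 and -0.02 ± 0.04). Gm11266 lost its call in 4 of the 20 alternatives (adjusted p up to 0.157) and 9430073C21Rik in 5 (up to 0.373), in both cases in females alone and in males alone as well. Gm12258, annotated as protein-coding, fell by 0.47 ± 0.07. The use of strand in the counting was not stated, so reads of overlapping genes cannot be told apart. The 1 gene at least 2-fold lower, 1700028J19Rik, had a mean of 0.236 CPM and an adjusted p of 0.0478.

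The differences were also fitted within each library block, an alternative added after the data were seen. Fos (2.89 to 3.32), Egr1 (2.66 to 3.20), Junb (1.77 to 2.47), Ier2 (1.09 to 1.56) and Dusp1 (1.06 to 1.36) passed in all 5 blocks. Nr4a1 was between 0.68 and 1.03 and passed in 3, and Hspa1b was between 0.48 and 1.68 and passed in 0. All 65 named genes other than Fosb kept their sign in every block, but the blocks divide the same libraries that gave the calls. Such agreement is therefore not independent support.

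The dependence of the difference on sex and on generation was tested next. The interaction of Fosb class with sex gave 0 calls by edgeR (0% of genes, smallest adjusted p = 0.109), with 1483 genes (8.20%) at an unadjusted p under 0.05, and 0 by limma. DESeq2 called 5 genes: Rpl23a-ps3, Jchain, Ifit3, Igkc and Rin3, of which Jchain and Igkc encode parts of antibodies. The interaction with generation gave 0 calls by edgeR (0%, smallest adjusted p = 0.551), with 1016 genes (5.61%) at an unadjusted p under 0.05, and 0 by DESeq2 and limma. For Fos the difference in the 6 groups thus ran from 2.21 to 3.99 without an interaction that passed.

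The same ranking was applied to generations 17 and 18, which share no library with the classes above. There the 40 highest libraries had 2.18 CPM of Fosb at the median and the 40 lowest 0.354 CPM, a log2 difference of 2.76. Of 17499 genes tested, 56 were called (0.32%, edgeR), 54 higher and 2 lower. Of these, 33 were called with the same sign in the later generations, which is 58.9% of the 56 and 10.1% of the calls there, and 0 with the opposite sign. Fos differed by 1.84 ± 0.17 (10.7 CPM at the median of all libraries of these generations), Egr1 by 1.56 ± 0.15, Otud1 by 1.19 ± 0.15 and Atf3 by 1.08 ± 0.16. Hspa1b (1.26 ± 0.28), Hspa1a (1.25 ± 0.27) and Dnajb1 (0.86 ± 0.20) were called there as well. Zfp36 was not (0.13, adjusted p = 0.930), nor were Egr2 (0.45, adjusted p = 0.0573) and Maff (0.36, adjusted p = 0.407). For Mt1 the difference was -0.35 (adjusted p = 0.798), and 0 of 18 glucocorticoid responsive genes were called. None of the 8 named falls was called in these generations: A930016O22Rik stood at -0.25, Gm20045 at -0.08 and Gm11266 at 0.03.

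In the libraries between both classes, the slope of each gene on the Fosb score was fitted, in log2 units per unit of score; Fosb itself had 1.34. Of 18180 genes tested, 45 were called (0.248%, edgeR), 35 with a positive and 10 with a negative slope, and 33 of them were called between the classes with the same sign (73.3% of the 45 and 10.1% of the calls between the classes). Among the genes that passed, the slope was 0.90 ± 0.05 for Egr1, 0.87 ± 0.06 for Fos, 0.66 ± 0.07 for Btg2, 0.63 ± 0.08 for Junb, 0.43 ± 0.04 for Ier2 and 0.40 ± 0.04 for Dusp1. Fos stood at 39.6 CPM in the median library of this set, between the 12.3 and 104.2 CPM of the classes. Zfp36 was called here (0.35 ± 0.05). Heat shock genes were not: Hspa1b had a slope of -0.02 ± 0.16, Hspa1a of -0.06 and Dnajb1 of 0.02, and 0 of 16 chaperone genes passed. Otud1 (0.27, adjusted p = 0.249), Atf3 (0.25, adjusted p = 0.650) and Nr4a3 (0.08) did not pass either. Gm20045 (-0.21 ± 0.04) and A930016O22Rik (-0.26 ± 0.06) had negative slopes that passed. The rest of the 8 named falls did not pass, and Gm11266 (0.08 ± 0.08) and 9430073C21Rik (0.01 ± 0.09) had positive slopes.

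**Figure D5:**
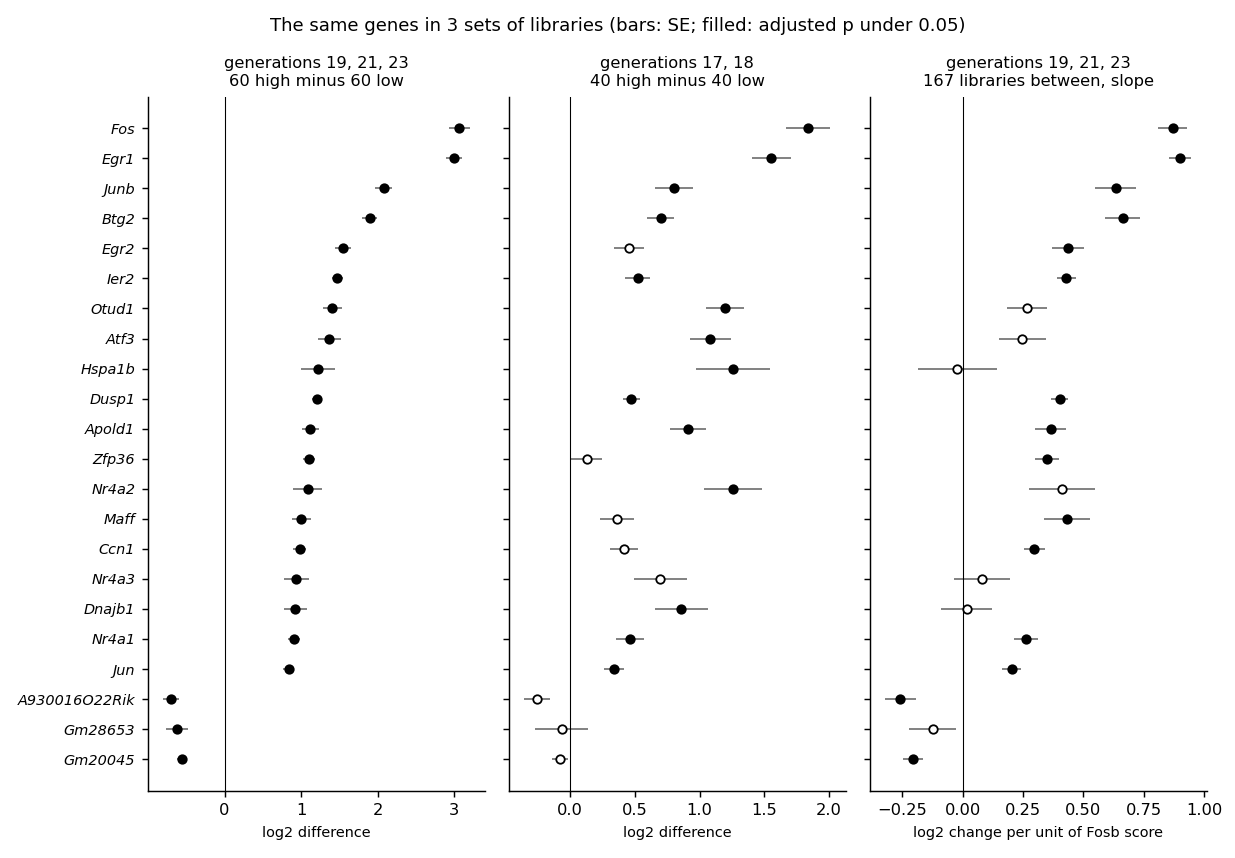
Fitted differences of 22 genes with their SE in the Fosb-high and Fosb-low libraries (left), in those of generations 17 and 18 (centre), and as slopes per unit of Fosb score in the libraries between the classes (right); horizontal axes differ in scale. Filled points passed an adjusted p under 0.05 (edgeR); Fos and Egr1 passed in all 3 sets, and Hspa1b has a slope near 0 on the right.

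Called in all 3 sets with the same sign were 13 genes: Fos, Egr1, Junb, Btg2, Ier2, Dusp1, Apold1, Nr4a1, Jun, Klf2, Klf4, Adamts1 and Kcne4. Adamts1, a secreted protease, and Kcne4, a potassium channel subunit, differed by 0.52 and 0.49 between the classes and are named here after their values were seen.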

How the data were processed

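Libraries were poly(A)-selected RNA-seq of skeletal muscle. The authors estimated expected counts per gene with EMASE in the GBRS package on a transcriptome of the founder strains, and the deposited expected counts are unnormalised. Both mates of a pair were counted as single reads per the study's methods. The deposited Fosb score is the variance stabilising transform of DESeq2. The deposited gene positions, in megabases on GRCm38, equalled those of GENCODE M21 for 99.5% of starts. Columns of 4 animals stand in exchanged places, and their names were taken as right. Generation is read from the sample titles, and the study's methods name fewer generations.

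Here the expected counts were rounded and fitted with edgeR 4.0.16 in R 4.3.3: filterByExpr with a minimum count of 10 kept 18096 of 20612 genes, TMM scaling, and a quasi-likelihood F-test with sex-by-generation group as covariate. P-values were adjusted by Benjamini-Hochberg over all genes tested except Fosb, with a threshold of 0.05. Log2 differences are Fosb-high minus Fosb-low, with SE, and CPM uses the TMM-scaled total. Differences between the classes in depth, mitochondrial share, share of the 10 most abundant genes, library number and animal number were tested by permutation within groups (100000 resamples, 2-sided, adjusted over the 5). Alternatives were limma 3.58.1 on the deposited scores, DESeq2 1.42.0, other scalings, filters, covariates, class sizes, and subsets of libraries. Figures used Python 3.11.15 and matplotlib 3.10.9.

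Named were Fosb, Fos and Nr4a1, the 12 largest rises and 8 largest falls of called genes (mean of at least 1 CPM, same sign in all 6 groups), all called members of the first 3 lists, and up to 4 called members of each other list with the largest differences; further genes are values of list members or are marked as chosen later, and 1 gene that the rule named is not reported here. The members and lists were chosen with earlier results of these data known. Each library is 1 animal. Litter, dissection time and cage were not given in the sources used here, so p-values measure the spread between these animals.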

Additional observations from a re-analysis of the deposited data

How the results depend on the processing

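Of the 65 named genes other than Fosb, 0 changed sign under any alternative, and 35 kept their call under all of them outside the fits within library blocks. The alternatives drew on the libraries by which these genes were chosen, so the kept signs are not independent support. The share of genes called, 1.81%, was between 1.39% and 2.29% under the other scalings, filters, tools, covariates and class sizes, without generation 21 and without the animals in exchanged columns. It was 2.73% for the slope over all libraries, 0.648% in females alone, 0.623% in males alone, 1.0% without generation 19 and 0.691% without generation 23. Within the 5 library blocks, fits added after the data were seen, it was 0.115%, 0.124%, 0.0598%, 0.134% and 0.0267%. These subsets held fewer libraries. The calls lost most often were those of Jdp2, Mt2, Ccl7, Cebpd, Nfil3 and Pde4d, and at least 1 was lost for Hspa1b, Gm28653, Gm11266, 9430073C21Rik, Jund, Mafk, Nr4a2, Nr4a3, Klf6, Myc, Hes1, Il1b, Hspa1a, Hspb1, Thbs1, Ccn2, Mt1, Ddit4, Per1, Slc25a25, Ciart, Gadd45b, Adm and Esam. The interaction with sex gave 5 calls by DESeq2 (0.0276%). In the libraries between the classes 0.248% called became 0.385% (70 genes) by DESeq2 and 0.154% (28 genes) by limma. The cause of these differences was not tested. In generations 17 and 18 the count was 43 to 79. As differences in medians, total count was -0.299 M in place of 1.72 M and animal number 4 in place of -1.83, both without passing. The alternative without libraries whose sex-linked transcripts went against the label left out 0 of the 120 and changed nothing. No paired analysis was possible because each animal number occurs once. Genes under 1 CPM, among them 38 called falls and 22 called rises, rest on fewer reads per library than the others, and the scarcest on few.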

Other observations

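In the libraries between the classes, 2 of the 5 tested lymphocyte markers had negative slopes on the Fosb score that passed, against 0.248% of all genes called there, and the median slope of the 5 was -0.81. They were Ms4a1 (-1.35 ± 0.30, edgeR adjusted p = 0.0115) and Cd79a (-1.42 ± 0.35), both known as B lymphocyte genes. Pax5 (-1.74 ± 0.42), Ighd (-1.59 ± 0.38) and Ltb (-1.29 ± 0.30), which are on no list used here, also passed and were chosen after their values were seen. Between the Fosb-high and Fosb-low classes Ms4a1 and Cd79a were not called, with differences of 0.0024 and 0.06. Lymphocyte marker levels were spread very unevenly, the sum of 5 markers running from 0.127 to 75.5 CPM in the Fosb-high libraries and from 0.134 to 56.8 CPM in the Fosb-low.

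In generations 17 and 18, 33 of the 56 called genes were also called between the classes, where 1.81% of all genes were called. The other 23 were not. Among them, named after their values were seen, were Nes, an intermediate filament gene of growing cells (0.36 ± 0.07 there and 0.04 between the classes), and Bcl6b, a repressor found in endothelium (0.64 ± 0.12 and 0.14). The difference between both sets of libraries was not tested.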
